A study of Mus musculus with 7 samples.

Results

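The genes described here are the murine classical and Q-region major histocompatibility complex (MHC) class I genes H2-K1, H2-D1, H2-Q1, H2-Q2, H2-Q4, H2-Q6 and H2-Q7, the T-region gene H2-T23 and B2m, 9 of the 38924 gene records, together with their 125 of 359565 exon bins. They were taken by name, and the set was chosen by the measured gene counts of H2-Q2, which were known to differ between genotypes. Values of the genotype contrast are therefore given for these 9 genes as a description, without a test. The study sequenced polyadenylated RNA from the hippocampus of adult mice. Libraries followed the Illumina TruSeq mRNA protocol after extraction by Qiagen RNeasy Plus. Ammon's horn, which holds the CA1 to CA3 pyramidal fields, came from mice homozygous for a Khdrbs3 deletion, the Tstar null allele (KO, 3 libraries), dentate gyrus came from wild-type mice (1 library), and Ammon's horn came from wild-type mice (WT, 3 libraries). The labels give all 3 groups the same strain entry, 8 generations of backcrossing of that allele to C57Bl6. Khdrbs3 encodes T-STAR, an RNA-binding protein that regulates alternative splicing in neurons. The labels give no sex and do not say whether a library is 1 animal or a pool, so the spread and p-values below are those between libraries.

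Class I molecules are cell surface heterodimers of a polymorphic heavy chain and the invariant light chain beta-2-microglobulin, encoded by B2m. They are loaded in the endoplasmic reticulum with peptides that the proteasome makes and the TAP transporter imports, and they display these to CD8 T cells and natural killer cells. In the brain, class I genes are expressed by endothelial cells and microglia and at low level by neurons, where they have been studied in synaptic plasticity. H2-K1 and H2-D1 encode the classical heavy chains, H2-Q6 and H2-Q7 encode forms of the Qa-2 antigen, and H2-T23 encodes Qa-1, which presents leader peptides of other class I chains to the CD94/NKG2 receptors.

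The class I promoter is known for an NF-kappaB element beside an interferon-stimulated element, followed by an SXY module that the regulator NLRC5 works through. RefSeq windows of 250 bases before to 50 bases after the gene start (GRCm38.p6, the mm10 build) were available for 8 of the 9 genes. Those of both classical genes, of H2-Q7, of H2-Q2 and of B2m are shown, because H2-Q2 is the gene whose counts differed between genotypes and the others are the family members it can be read against. Capitals mark matches on either strand to GGGATTCCC (kappaB), GAANNGAAA (the interferon element as class I promoters carry it), GAAANNGAAA (its consensus form), TGACG (core of the X2 box) and ATTGG (inverted CCAAT box, found in the Y box); no 2 matches overlap in these windows.
H2-Q2, chr17:35342057-35342356, plus strand: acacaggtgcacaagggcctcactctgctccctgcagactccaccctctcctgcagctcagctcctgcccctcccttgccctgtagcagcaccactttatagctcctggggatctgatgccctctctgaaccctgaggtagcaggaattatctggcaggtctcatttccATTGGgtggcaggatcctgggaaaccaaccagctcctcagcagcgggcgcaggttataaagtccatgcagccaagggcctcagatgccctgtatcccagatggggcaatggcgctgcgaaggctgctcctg
H2-K1, chr17:34000298-34000597, minus strand: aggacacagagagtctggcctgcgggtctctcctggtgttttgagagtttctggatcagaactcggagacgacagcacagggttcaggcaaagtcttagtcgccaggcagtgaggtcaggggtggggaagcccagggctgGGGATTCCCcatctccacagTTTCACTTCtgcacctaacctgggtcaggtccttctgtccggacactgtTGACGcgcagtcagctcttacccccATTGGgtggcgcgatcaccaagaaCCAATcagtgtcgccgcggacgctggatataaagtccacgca
H2-D1, chr17:35262844-35263143, plus strand: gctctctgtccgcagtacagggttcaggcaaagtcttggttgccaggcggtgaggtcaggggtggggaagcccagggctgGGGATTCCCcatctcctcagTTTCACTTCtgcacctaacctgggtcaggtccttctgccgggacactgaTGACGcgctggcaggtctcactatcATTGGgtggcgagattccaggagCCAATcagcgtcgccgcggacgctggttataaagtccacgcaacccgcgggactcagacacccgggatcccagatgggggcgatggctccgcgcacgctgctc
H2-Q7, chr17:35438905-35439204, plus strand: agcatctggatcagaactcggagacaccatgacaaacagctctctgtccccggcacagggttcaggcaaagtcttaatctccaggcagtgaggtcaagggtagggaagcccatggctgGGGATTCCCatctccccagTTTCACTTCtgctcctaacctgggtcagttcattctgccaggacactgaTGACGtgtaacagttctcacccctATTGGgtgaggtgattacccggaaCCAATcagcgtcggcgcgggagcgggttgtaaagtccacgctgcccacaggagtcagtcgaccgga
B2m, chr2:122147437-122147736, plus strand: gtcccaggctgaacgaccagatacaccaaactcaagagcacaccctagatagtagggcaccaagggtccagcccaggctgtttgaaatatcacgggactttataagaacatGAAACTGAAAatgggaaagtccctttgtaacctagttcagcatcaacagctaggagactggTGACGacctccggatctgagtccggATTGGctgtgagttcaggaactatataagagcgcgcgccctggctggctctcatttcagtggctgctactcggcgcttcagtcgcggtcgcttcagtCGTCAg
The H2-Q2 window held an ATTGG at -81 from the RefSeq start and no match to the other 4 patterns. That start is not the first base of the H2-Q2 gene record, which is 35342242. The RefSeq starts of H2-K1, H2-D1, H2-T23 and B2m also differ from the starts of their gene records. The kappaB letters stood in the windows of H2-K1, H2-D1, H2-Q6 and H2-Q7, against 0.353% of all 32851 windows. GAANNGAAA stood in those 4 and in that of H2-Q4, as TTTCACTTC on the printed strand in each, against 7.52% of all windows. GAAANNGAAA stood in those of H2-T23 and B2m (3.44% of all windows), TGACG in those of H2-K1, H2-D1, H2-Q4, H2-Q7 and B2m (20.8%), and ATTGG in all 8 (37.4%). These are letter matches and do not show that a factor binds there.

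Library totals were 50230733 to 67692326 reads over gene records, each listed with a gene's outermost start and end. Whether reads in introns were counted there is not given in the sources used here. Exon-bin totals were 29698245 to 39904606; bins are the pieces of a gene's exons between annotated exon boundaries, and in DEXSeq counting, by which the bin files are named, a read that touches several bins of a gene counts in each. Exon bin 2 of Khdrbs3 held 6, 9 and 7 reads in the KO libraries, 506 in the dentate library and 808, 1103 and 964 in the WT libraries. Its gene record, in contrast, had 197 to 203 CPM in KO, 78.8 CPM in the dentate library and 134 to 143 CPM in WT. Summed markers of dentate granule cells reached 695 CPM in the dentate library, against 109 to 136 CPM in WT. Those of CA1 pyramidal cells reached 97.4 CPM in the dentate library, against 746 to 778 CPM in WT. Markers of CA2 and CA3 pyramidal cells, in contrast, summed to 1100 CPM in the dentate library, against 726 to 807 CPM in WT. Of these 6 markers, 2 passed as higher in the dentate library and 2 as lower. None of the choroid plexus, meningeal, microglial or endothelial markers was at 0 in any group. Choroid plexus markers summed to 1159 and 1132 CPM in KO libraries 1 and 3 and 142 CPM in KO library 2, against 136 to 314 CPM in WT; Ttr alone made 731, 2.84 and 672 CPM of the KO sums. Microglial markers summed to 529, 518 and 511 CPM in KO and 600, 544 and 578 CPM in WT, without overlap (median log2 difference -0.19, with none of 12 positive). Oligodendrocyte markers summed to 3678 to 3937 CPM in KO and 4306 to 4468 CPM in WT (median -0.21, with none of 8 positive and 1, Cldn11, passing as lower). CPM denotes counts per 1000000 library reads after TMM scaling.

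The classical genes and B2m gave most of the class I signal. H2-D1 had 71.2, 53.2 and 60.4 CPM in the KO libraries, 60.6 CPM in the dentate library and 80.4, 58.8 and 62.7 CPM in the WT libraries. H2-K1 had 23.1, 18.3 and 24.5 CPM in KO, 19.7 CPM in the dentate library and 22.1, 18.7 and 18.6 CPM in WT. B2m had 60.7, 55.6 and 62.1 CPM in KO, 54.5 CPM in the dentate library and 69.5, 55.9 and 59.8 CPM in WT. In all 3 genes the KO and WT ranges overlapped. The log2 differences between KO and WT were 0.15 (SE 0.11) for H2-K1, -0.13 (SE 0.12) for H2-D1 and -0.05 (SE 0.08) for B2m. In exon-bin sums they were 0.08 (SE 0.08), 0.15 (SE 0.08) and -0.04 (SE 0.08), so H2-D1 had the other sign. Bin CPM ranges also overlapped, for H2-D1 with 35.5 to 40.0 CPM in KO and 31.0 to 35.9 CPM in WT.

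H2-T23 had 10.02, 8.86 and 11.9 CPM in KO, 7.22 CPM in the dentate library and 10.4, 10.1 and 8.87 CPM in WT. In these gene records, but not in exon-bin sums, the dentate value lay below all 6 Ammon's horn libraries. H2-Q4 had 5.22, 5.83 and 7.22 CPM in KO, 7.17 CPM in the dentate library and 5.04, 6.21 and 6.78 CPM in WT, and H2-Q1 had 5.91, 3.87 and 5.90 CPM in KO, 5.39 CPM in the dentate library and 6.11, 4.87 and 6.75 CPM in WT. The Qa-2 genes varied most among replicates. H2-Q6 had 2.90, 4.75 and 3.31 CPM in KO, 3.79 CPM in the dentate library and 2.62, 2.13 and 5.89 CPM in WT. H2-Q7 had 4.94, 4.56 and 2.39 CPM in KO, 4.92 CPM in the dentate library and 2.44, 3.78 and 6.21 CPM in WT. The coefficient of variation over the WT libraries was 57.7% for H2-Q6 and 46.1% for H2-Q7, against 11.3% for B2m.

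**Figure D1:**
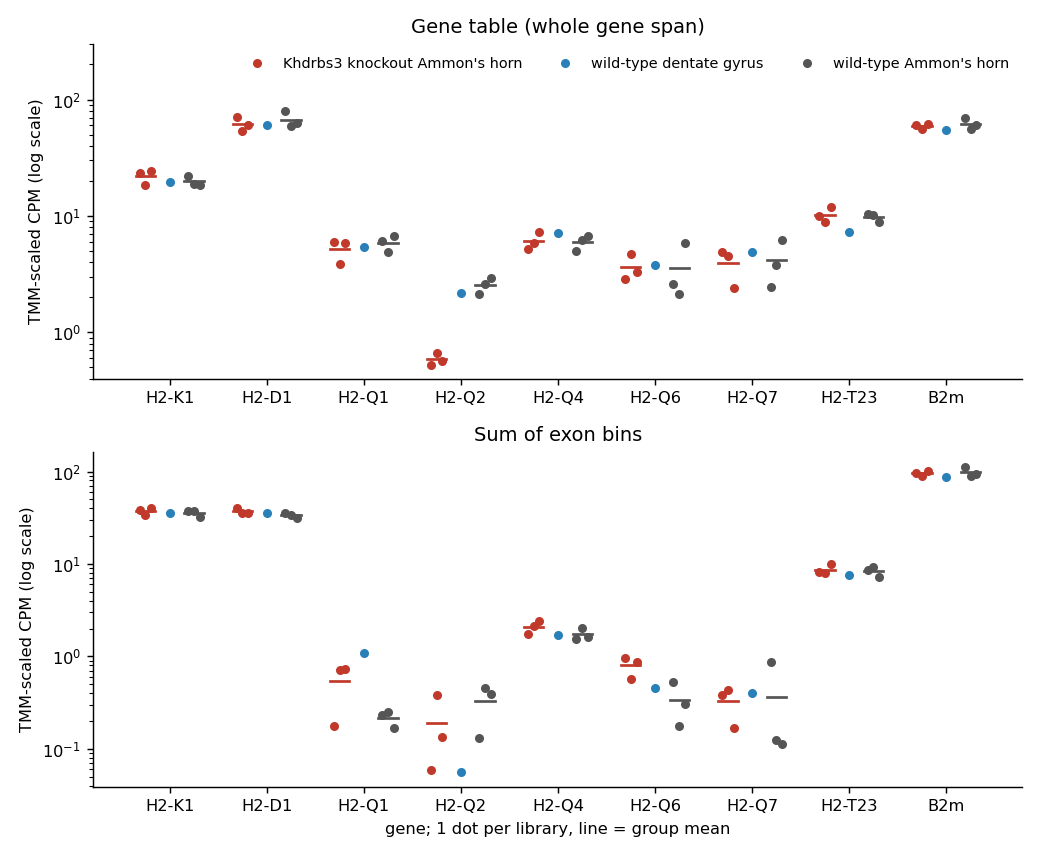
TMM-scaled CPM (log axis) of the 9 genes in each library, from gene records (upper panel) and from the sum of exon bins (lower panel), with KO Ammon's horn in red, wild-type dentate gyrus in blue, WT Ammon's horn in grey and lines at the means of 3 libraries. H2-Q2 stands apart by genotype in the upper panel (0.522 to 0.658 CPM in KO, 2.12 to 2.95 CPM in WT) and overlaps in the lower one.

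H2-Q2 was the member with the genotype difference that entered the choice of genes. Its gene record held 31, 41 and 29 reads in the KO libraries, 136 in the dentate library and 111, 179 and 176 in the WT libraries, or 0.522, 0.658 and 0.572 CPM in KO, 2.19 CPM in the dentate library and 2.12, 2.59 and 2.95 CPM in WT. Every KO library lay below every wild-type library. The log2 difference between KO and WT was -2.12 (SE 0.20). All 9 genes passed the low-count filter, and 1 of the 9, H2-Q2, had its KO libraries all below WT (6.44% of all genes tested), and none of the 9 had them all above (6.81%). Between KO and WT, 17 of 22830 genes passed an adjusted p of 0.05 (0.0745%), 15 higher in KO (0.0657%) and 2 lower (0.00876%). Choroid plexus, microglial and oligodendrocyte markers also differed between these libraries. With the mean choroid plexus marker level as a covariate, the H2-Q2 log2 difference was -1.94 and 25 genes passed. The part of the microglial and oligodendrocyte markers was not tested.

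The exon bins of H2-Q2 held few reads, and their groups overlapped. Its 10 bins together held 2, 14 and 4 reads in KO, 2 in the dentate library and 4, 18 and 14 in WT, and the log2 difference in bin sums was -0.76 (SE 0.62). Subtracting the bin sum from the gene count left 29, 27 and 25 reads in KO, 134 in the dentate library and 107, 161 and 162 in WT. Most of the gene-record difference thus lay in reads that the bin files do not assign to an H2-Q2 bin. Which part of the gene span those reads covered was not tested, since the files give 1 count for the span. H2-Q2 lies on chr17:35342242-35346762, plus strand (mm10), and its longest stretch without a bin runs between bin 3, which ends at base 35343388, and bin 4, which starts at base 35344755.

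**Figure D2:**
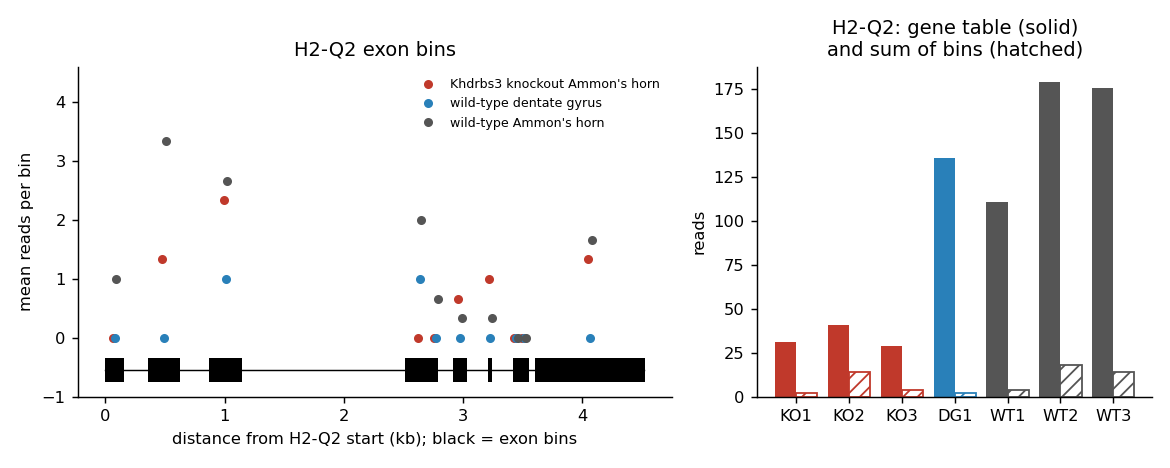
Left, mean reads in each H2-Q2 exon bin by group against distance from the gene start in kb, with bins drawn to scale in black from an annotation rebuild; right, reads of the gene record (solid) and of all bins together (hatched) in each library. The solid bars run from 29 to 41 reads in KO and from 111 to 179 in WT, while no hatched bar passes 18 reads.

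The other Q-region genes also had more gene-record than bin reads. Over 7 libraries the gene count was 19.9 times the bin sum for H2-Q1, 12.1 times for H2-Q2, 5.69 times for H2-Q4, 11.6 times for H2-Q6 and 21.3 times for H2-Q7. It was 0.97 times for H2-K1 and 1.07 times for B2m, 3.09 times for H2-D1 and 1.96 times for H2-T23, against a median of 1.64 over 15202 genes with at least 500 reads. The Q-region ratios exceeded those of 81.1% to 86.2% of these genes, and the 90th percentile was 64.1, so ratios of this size were common. H2-K1 had fewer gene-record than bin reads in 4 of 7 libraries, so a bin sum is not a subset of the gene count. Class I genes also share sequence: 16.1% of the 50-base words of H2-Q2 transcripts (GENCODE M21) occur in another gene, most of them in H2-Q1. The share was 36.4% for H2-Q4, 35.0% for H2-Q6, 26.5% for H2-Q7, 9.63% for H2-K1 and none for B2m. Words were matched on either strand. Of the 944 shared words of H2-Q4, 398 occur in Gm11131, a record that overlaps H2-Q4 on the other strand. How the deposited counts treat reads that fit several genes is not given in the sources used here, and levels of the Q-region genes are uncertain for that reason.

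**Figure D3:**
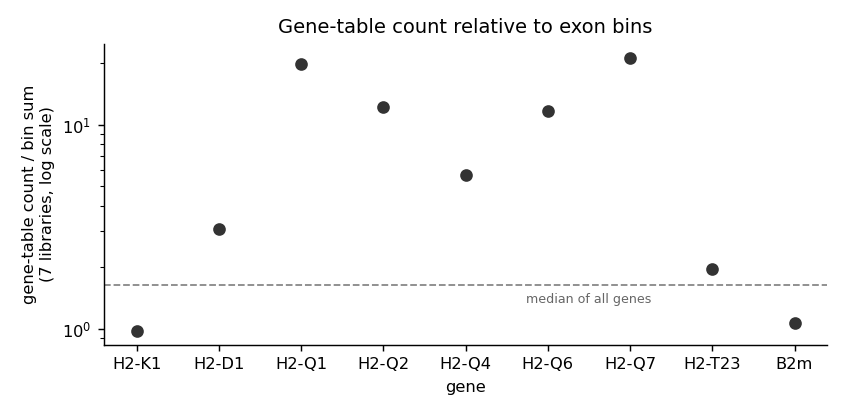
Gene-record count divided by exon-bin sum over 7 libraries for each gene (log axis), with the median of all genes (1.64) dashed. The 5 Q-region genes lie between 5.69 and 21.3, above the other 4.

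Bin sums of the other Q-region genes were small too. H2-Q6 bins held 33, 21 and 26 reads in KO, 16 in the dentate library and 16, 7 and 11 in WT, with every KO library above every WT library, and a log2 difference of 1.27 (SE 0.41); in bin CPM, 1 of the 8 genes kept, H2-Q6, had its KO libraries all above WT (6.06% of all genes tested) and none had them all below (6.83%). In bin sums, 8 of 15288 genes passed between KO and WT (0.0523%). The gene records of H2-Q6 overlapped, with a log2 difference of 0.05 (SE 0.34). H2-Q7 bins held 13, 16 and 5 reads in KO, 14 in the dentate library and 26, 5 and 4 in WT. H2-Q1 bins held 6, 26 and 22 reads in KO, 38 in the dentate library and 7, 10 and 6 in WT. H2-Q4 bins held 59 to 78 reads in KO, 60 in the dentate library and 47 to 80 in WT. The 8 class I genes together made 124, 100.05 and 116 CPM of gene records in KO, 111 CPM in the dentate library and 131, 107 and 119 CPM in WT, and their bins 90.03, 81.5 and 90.3 CPM in KO, 82.7 CPM in the dentate library and 85.3, 83.0 and 72.8 CPM in WT.

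Levels per length gave an order within WT Ammon's horn. Per kb of gene span, H2-D1 had 14.1 ± 2.4 CPM and B2m 11.4 ± 1.3 CPM (SD, n = 3), and their library ranges overlapped. H2-K1 followed at 4.58 ± 0.46 CPM per kb and H2-T23 at 3.18 ± 0.27 CPM per kb, each apart from its neighbours in every library. H2-Q1 (1.26 ± 0.20), H2-Q4 (1.06 ± 0.16), H2-Q7 (0.897 ± 0.413), H2-Q6 (0.681 ± 0.393) and H2-Q2 (0.565 ± 0.092 CPM per kb) overlapped each with the next. H2-Q2 had 0.129 ± 0.015 CPM per kb of span in KO. Per kb of exon, which could be computed for 8 genes, B2m led at 115 ± 13 CPM, before H2-D1 at 12.04 to 13.91 CPM and H2-T23 at 2.90 ± 0.38 CPM, and the Q-region genes lay between 0.0759 and 0.667 CPM. The gene records of B2m, H2-T23 and H2-Q4 overlap those of Patl2, A930015D03Rik and Gm11131 on the other strand, and reads of such pairs cannot be told apart if strand was not used in counting. The Patl2 record held 3690, 3594 and 3244 reads in KO and 3761, 3980 and 3673 in WT, close to the 3600, 3465 and 3147 reads of B2m in KO and 3638, 3861 and 3574 in WT.

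Wild-type dentate gyrus was then set against wild-type Ammon's horn. The H2-Q2 difference that entered the choice of genes did not use the dentate library, but its WT libraries are the reference here. The dentate differences of H2-Q2 are therefore not independent of that choice. The dentate library has no spread of its own, and the fit assumes that it varies like the Ammon's horn libraries. By edgeR's quasi-likelihood test with Benjamini-Hochberg adjustment, 0 of 9 genes passed an adjusted p of 0.05 in gene records, where 22% of 24486 genes did; 1 of 9, H2-T23, had an unadjusted p under 0.05, and DESeq2 called 0. H2-T23 was at 7.22 CPM in the dentate library, against 8.87 to 10.4 CPM in WT (log2 difference -0.44, SE 0.17, adjusted p = 0.0929 by edgeR). Its bin sums differed less, with 7.57 CPM in the dentate library against 7.17 to 9.28 CPM in WT. There the log2 difference was -0.15 (SE 0.18, adjusted p = 0.588 by edgeR). The other 8 differences in gene records lay between -0.23 (H2-Q2, SE 0.25) and 0.25 (H2-Q4, SE 0.20). Single WT libraries moved the Qa-2 values: H2-Q6 (0.10 with all libraries) was at 0.68 without WT library 3 and -0.17 without WT library 2, and H2-Q7 (0.24 with all libraries) was at 0.65 without WT library 3 and -0.02 without WT library 1, with no call in any of these. In a bulk sample, fewer cells of a type and less RNA per cell cannot be told apart.

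In bin sums, H2-Q1 passed the test. It had 38 reads in the dentate library, against 7, 10 and 6 in WT (log2 difference 2.29, SE 0.63, adjusted p = 0.0171 by edgeR), where 29.3% of 16263 genes passed. Its gene record showed no such difference, with 335 reads in the dentate library and 320, 336 and 403 in WT (log2 difference -0.13, SE 0.25, adjusted p = 0.763), and 2 of the 3 KO libraries held 26 and 22 bin reads. The 38 bin counts were spread over 11 of its 14 bins, with 9 in the last. Since a read that touches several bins counts in each, they may come from fewer reads. The SEs and p-values of bin sums do not allow for this. The other 8 genes did not pass in bin sums; H2-Q2, with 2 reads in the dentate library against 4, 18 and 14 in WT, had a log2 difference of -2.49 (SE 1.22, adjusted p = 0.151 by edgeR). Of 125 bins, 43 had enough reads for a test of usage (18 of H2-K1, 10 of H2-D1, 8 of H2-T23, 4 of B2m and 3 of H2-Q4). By edgeR's exon-level test 0 passed, where 0.213% of all bins did; 2 had an unadjusted p under 0.05, bins 2 and 3 of H2-D1, and limma called 0.

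**Figure D4:**
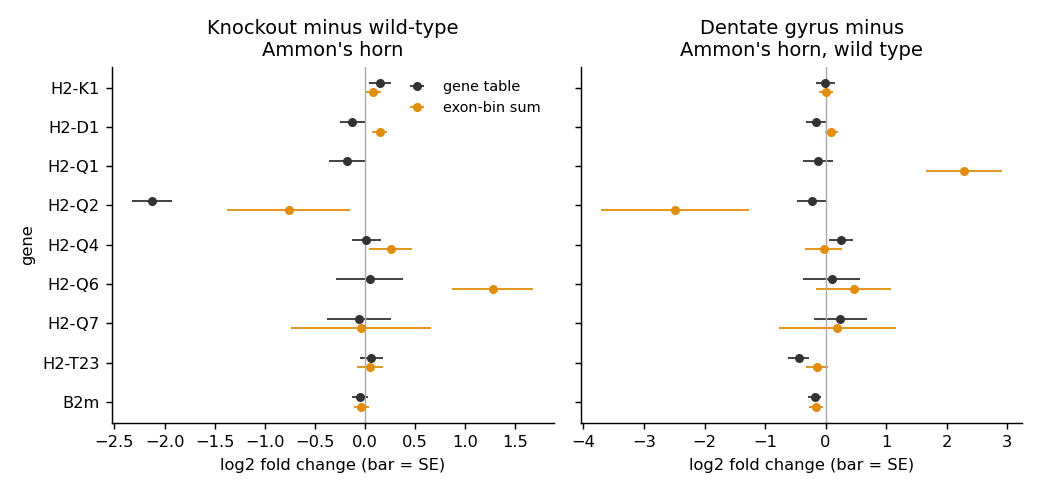
Log2 fold changes with their SE for the 9 genes, KO over WT Ammon's horn (left) and dentate gyrus over Ammon's horn in wild type (right), from gene records (black) and exon-bin sums (orange); H2-Q1 had too few bin reads for the left fit. H2-Q2 stands at -2.12 in gene records on the left, and H2-Q1 at 2.29 in bin sums on the right.

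The rest of the class I pathway was read from 5 lists of genes, chosen with earlier results of these data known. Their tests may therefore not be independent of that choice. Between KO and WT, 0 of their 75 tested genes passed by edgeR, 10 had an unadjusted p under 0.05 and DESeq2 called 1, H2-T24. Over all 22830 genes, 17 passed (0.0745%), 1914 had an unadjusted p under 0.05 and DESeq2 called 117. The 10 included 6 of the 16 other class I and class I-like genes. The medians of the lists were -0.05 for 14 loading and assembly genes, 0.20 for 16 other class I and class I-like genes, 0.12 for 10 class II genes, 0.02 for 29 interferon genes and 0.22 for 6 class I receptors, against 0.00 over all genes. In the first list Calr, a chaperone of the loading complex, had 302, 271 and 273 CPM in KO and 326, 313 and 289 CPM in WT, and Canx, the chaperone calnexin, had 292, 279 and 284 CPM in KO and 296, 268 and 288 CPM in WT. In the second list H2-T24, a T-region gene, had 32.3, 32.1 and 33.9 CPM in KO and 24.9, 25.2 and 27.3 CPM in WT, without overlap (log2 difference 0.34, SE 0.06, adjusted p = 0.170 by edgeR). Fcgrt, the neonatal Fc receptor heavy chain, had 14.2, 13.3 and 13.5 CPM in KO and 14.5, 15.2 and 14.4 CPM in WT. Of the class II list H2-DMa, part of a peptide exchange factor, had a log2 difference of 0.16 (SE 0.08) and Ciita, the class II transactivator, 0.02 (SE 0.11). Among interferon genes the kinase Jak1 had 0.00 (SE 0.05) and the receptor chain Ifngr2 -0.13 (SE 0.06), and among receptors and partners Insr had 0.21 (SE 0.07) and Cd247 0.13 (SE 0.10).

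Between dentate gyrus and Ammon's horn, 2 of 14 loading genes fell and none rose, where 10.9% of all genes fell and 11.2% rose. Psmb10, an immunoproteasome subunit, had 13.6 CPM in the dentate library, against 21.5, 22.6 and 21.4 CPM in WT (log2 difference -0.68, SE 0.10, adjusted p = 0.000763 by edgeR). Tapbp, tapasin, had 36.2 CPM in the dentate library, against 45.6, 47.2 and 46.6 CPM in WT (-0.36, SE 0.08, adjusted p = 0.0105 by edgeR). Of 16 other class I genes H2-T22 fell (9.71 CPM in the dentate library, against 13.6 to 14.5 CPM in WT) and H2-Q10 rose (1.13 CPM in the dentate library, against 0.145 to 0.229 CPM in WT). Of 11 class II genes 4 rose and none fell: H2-Aa (log2 difference 1.81, SE 0.40), H2-Eb1 (1.56, SE 0.30) and H2-Ab1 (1.55, SE 0.42), chains of the class II heterodimers, and Cd74, their invariant chain (1.21, SE 0.30). H2-Aa stood at 2.40 CPM in the dentate library, against 0.550 to 0.955 CPM in WT. Of 30 interferon genes Irf1 (log2 difference 0.80, SE 0.16), Tyk2 (0.78, SE 0.16) and Stat2 (0.44, SE 0.13) rose and Ifi27 fell (-0.52, SE 0.10). Of 8 receptor genes Cd247 (0.72, SE 0.14) and Insr (0.44, SE 0.10) rose. Medians were -0.10, 0.04, 0.22, 0.03 and 0.32 for the 5 lists, against -0.01 over all genes. Meningeal markers were higher in this library, 235 CPM summed in the dentate library against 148 to 162 CPM in WT. Of these 10 markers, 9 passed as higher and 1 as lower. Choroid plexus markers summed to 435 CPM in the dentate library against 136 to 314 CPM in WT, and 0 of 12 passed. Oligodendrocyte markers were lower, 1504 CPM in the dentate library against 4306 to 4468 CPM in WT, and 8 of 8 passed the test, with a median log2 difference of -1.57. Microglial markers summed to 490 CPM in the dentate library against 544 to 600 CPM in WT (5 of 12 passed, lower), endothelial and mural markers to 408 CPM in the dentate library against 445 to 481 CPM in WT (3 of 12 lower and 1 higher), and blood markers to 135 CPM in the dentate library against 187 to 259 CPM in WT. The part of these markers in the results above was not tested.

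**Figure D5:**
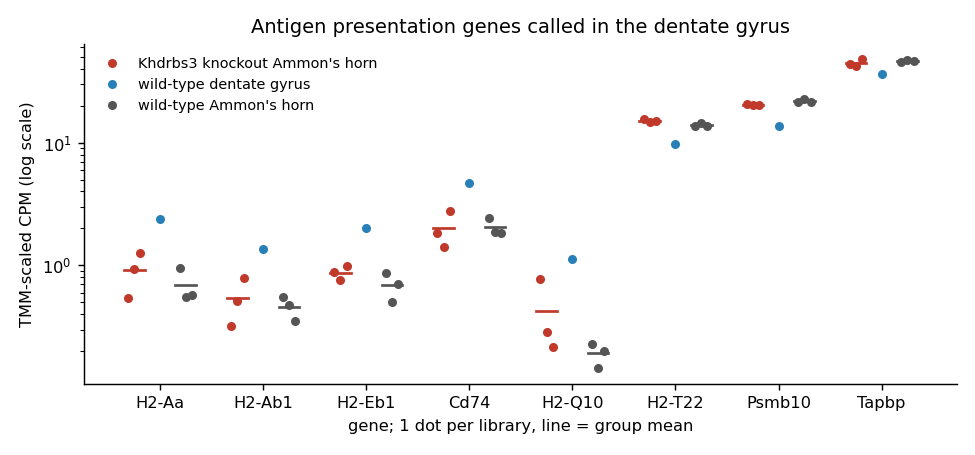
TMM-scaled CPM (log axis) per library of antigen presentation genes that passed the dentate comparison, with lines at the means of 3 libraries. The class II genes and H2-Q10 lie higher in the dentate library (blue) than in any WT library (grey), and H2-T22, Psmb10 and Tapbp lie lower.

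Records within 500 kb of H2-Q2 were read as its neighbours. Of 67 tested records that are not members, 0 passed between KO and WT by edgeR, 3 had an unadjusted p under 0.05 (Slc44a4, H2-Q5 and H2-Q10) and DESeq2 called 0, beside 17 (0.0745%), 1914 and 117 of 22830 genes in all; their log2 differences ran from -0.62 to 1.18 with a median of -0.01. The largest were H2-Q10, another Q-region class I gene (1.18, SE 0.49), Slc44a4, a choline transporter family gene (0.90, SE 0.33), and the pseudogene Ncr3-ps (0.76, SE 0.54). All of these were under 1 CPM in every KO and WT library. The lowest value was that of the pseudogene H2-Q5, with 4.55, 3.89 and 4.77 CPM in KO and 9.93, 4.61 and 5.84 CPM in WT. Over all 7 libraries the genes whose log2 CPM followed H2-Q2 most closely were Unc45b (Pearson r = 0.983), Rhob (0.976), Col26a1 (0.970), Nt5c3b (0.967) and Gm16580 (0.960), of which Gm16580 lies on the same chromosome. The genotype difference of H2-Q2, which entered the choice of genes, also enters this ranking, so it is a description only. H2-K1 was followed by Osgepl1 (0.994) and B2m by the overlapping Patl2 (0.999), each of 24485 genes ranked over 7 points, and no other member was in the first 5 of H2-K1, H2-Q2 or B2m.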

How the data were processed

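The 7 libraries of adult mouse hippocampus were used as 3 groups taken from the labels: KO Ammon's horn (3), wild-type dentate gyrus (1) and wild-type Ammon's horn (3). The authors deposited raw counts per gene record (listed from first to last base) and raw counts per exon bin; the mm10 build and the tools bedtools 2.17.0, TopHat2 2.0.8b, DESeq2 1.0.19 and Trim Galore 0.3.5 are named in the submitters' processing notes without roles, and read length and strand use are not given in the sources used here.

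Members and gene lists were chosen with earlier results of these data known. From the counts, edgeR 4.0.16 (R 4.3.3) fitted quasi-likelihood models with TMM scaling and filterByExpr, 6 libraries for the genotype and 7 in 3 groups for the dentate comparison; p-values were Benjamini-Hochberg adjusted over all genes at 0.05. Bin sums per gene were fitted alike, and bin usage was tested on bins with at least 10 reads in 3 libraries by diffSpliceDGE. DESeq2 1.42.0 and limma 3.58.1 were alternatives. The fits were tested on simulated data. Likeness used log2 of CPM plus 1. Named genes were the members, of each list the called genes of largest fold change (up to 4) or else the 2 of highest CPM, and the 3 neighbours of largest change. Bin positions were rebuilt from GENCODE M21, which matched for 8 of 9 genes and not for H2-K1.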

Additional observations from a re-analysis of the deposited data

How the results depend on the processing

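No paired analysis was possible because replicate numbers follow the order of the samples and tie no knockout library to a wild-type one. The H2-Q2 difference between KO and WT, which entered the choice of genes, was -2.24 to -2.01 on the log2 scale without 1 library and -1.95 without KO libraries 1 and 3, a setting chosen after seeing the data that leaves 1 KO library. With the choroid plexus marker level as a covariate it was -1.94. In exon-bin sums it was -0.76 (SE 0.62), with overlapping groups. The number of genes passing between KO and WT, 17, was 117 with DESeq2, 8 in exon-bin sums, 4 without mitochondrially encoded genes and 11 to 55 without 1 library (55 without KO library 2, 11 without KO library 1); the cause was not tested. Between dentate gyrus and Ammon's horn, 5392 genes passed, and 4814 to 5346 without 1 library. None of the 9 members passed there without any library (0 in each), and 1 passed in exon-bin sums: H2-Q1, whose difference was 2.29 in bin sums and -0.13 in gene records. That bin-sum value, an analysis chosen after seeing the data, ran from 2.13 to 2.42 without 1 library, with adjusted p up to 0.0382 by edgeR. Bins passing for usage, 360 in all, were 553 with limma and 196 to 512 without 1 library. The dentate comparison rests on 1 dentate library, and H2-Q1, H2-Q2, H2-Q6 and H2-Q7 have at most 38 bin reads per library.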

Other observations

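Further class I genes with uneven libraries were noticed after their values were seen. H2-Q5, a pseudogene, had 270, 242 and 242 gene-record reads in KO, 400 in the dentate library and 520, 318 and 349 in WT, so WT library 1 stood above the rest. H2-Q10 had 46, 18 and 11 reads in KO, 70 in the dentate library and 12, 10 and 12 in WT. The 4 Q-region genes other than H2-Q2 summed to 18.97, 19.01 and 18.8 CPM in KO, 21.3 CPM in the dentate library and 16.2, 17.0 and 25.6 CPM in WT.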
